A study of Mus musculus with 27 samples.

Results

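Transcripts of the proteasome, the complex that degrades ubiquitin-tagged proteins, were measured in infarcted mouse hearts. The genes described are all rows of the count table whose symbol is Psma, Psmb, Psmc, Psmd or Psme followed by a number, 43 of 27304 genes. They comprise 7 genes of the alpha ring, 3 constitutive catalytic beta genes (Psmb5, Psmb6 and Psmb7), 4 beta genes without catalytic activity and 3 immune catalytic genes (Psmb8, Psmb9 and Psmb10). The cap of the complex adds 9 base and 8 lid genes, and 4 activators, 3 base assembly chaperones and 2 tissue-restricted core genes complete the set. Of the 43 genes, 42 passed the filter on low counts in the fit of all libraries and were tested. The gene that did not pass was Psmb11, the beta subunit of thymic proteasomes, with 0 to 2 counts in a library. Psma8, the testis form of an alpha subunit, passed with 4 to 27 counts in a library.

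The series compared hearts of mice with and without chronic kidney disease (CKD) after myocardial infarction. All mice were male C57BL/6J animals of the ApoE-/- genotype, which have high blood cholesterol, and all ate a western type diet for 4 weeks. CKD mice then received 0.3% adenine in that diet for 10 days and 0.15% for 11 days, 4 of which came before the infarction, while control mice stayed on the diet without adenine. Hearts were sampled 7 days after the infarction, in the infarct and in myocardium remote from it, which gave 27 libraries: 7 of CKD infarct, 6 of control infarct, 8 of CKD remote and 6 of control remote tissue. These came from 8 CKD and 6 control mice, 13 of which gave both regions. Mouse age and the way the infarction was made are not given in the sources used here, and every group shares the ApoE loss and the infarction. The remote library of mouse 9179 carries CKD in its title and control as its treatment, and it was kept with the CKD mice.

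The core particle of the proteasome is a barrel in which alpha rings form the gate and beta rings hold the protease sites. The base, whose ATPases unfold substrates, and the lid, which removes ubiquitin, together form the cap that admits ubiquitin-tagged proteins. In immune cells, and in other cells after interferon gamma, Psmb8, Psmb9 and Psmb10 replace Psmb5, Psmb6 and Psmb7 in newly built cores, giving immunoproteasomes that cut peptides for presentation on MHC class I molecules. In heart muscle the proteasome turns over contractile proteins tagged by muscle ubiquitin ligases.

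The sequence upstream of Psmb8 and of Psmb5, the subunit it replaces, is shown because Psmb8 was higher and Psmb5 lower in infarct than in remote tissue. The windows are RefSeq sequence of build GRCm38.p6, 250 bases ending just before the annotated start, at chr17:34197945-34198194 on the plus strand and at chr14:54617996-54618245 on the minus strand. Capitals mark a GAS match (the letters TTCNNNGAA, known from binding of STAT factors) in Psmb8, 97 to 89 bases before the start, and an antioxidant response element core (TGACNNNGC, known from binding of CNC factors such as Nfe2l1) in Psmb5, 47 to 39 bases before it.
Psmb8: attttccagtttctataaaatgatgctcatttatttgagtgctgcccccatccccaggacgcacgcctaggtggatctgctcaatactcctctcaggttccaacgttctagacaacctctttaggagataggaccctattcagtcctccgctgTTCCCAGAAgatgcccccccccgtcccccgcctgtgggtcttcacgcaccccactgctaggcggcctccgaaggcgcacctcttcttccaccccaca
Psmb5: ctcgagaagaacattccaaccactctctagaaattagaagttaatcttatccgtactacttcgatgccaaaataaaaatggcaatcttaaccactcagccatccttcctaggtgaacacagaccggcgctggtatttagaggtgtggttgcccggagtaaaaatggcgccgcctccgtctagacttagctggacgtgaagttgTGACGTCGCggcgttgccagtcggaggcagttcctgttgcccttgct
Both strands were searched, and 36 of the 43 genes had a window in the RefSeq table. Psmb8 was the 1 proteasome gene with the GAS letters (2.78% of 36, against 8.13% of all 27025 genes with a window). The antioxidant response letters stood in 5 windows, those of Psmb5, Psmb6, Psmc6, Psmd12 and Psmd9 (13.9%, against 11.5% of all genes). An interferon response core (ISRE core) stood in 3 windows, those of Psmb3, Psmd4 and Psmd9 (8.33%, against 3.46% of all genes), and a CCAAT box in 14 (38.9%, against 37.5%). A match in these letters is a description of the window and was not tested as a binding site.

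The libraries held 14255456 to 42566498 counts, and the 43 genes took 0.371% to 0.446% of them. Levels are given in CPM, counts scaled to a common library total with TMM factors, which hold the bulk of genes level between libraries. CPM is not corrected for transcript length, so a level is compared between samples of 1 gene and never between genes. The infarct libraries differed widely in heart muscle. The summed level of 12 cardiomyocyte markers, none at 0, ran from 29285 to 102840 CPM in CKD infarct and from 4536 to 30327 CPM in control infarct tissue, and from 84301 to 105633 CPM in CKD remote and from 45536 to 103708 CPM in control remote tissue. A few libraries stood apart from the others of their label. In the infarct of CKD mouse 9179 the cardiomyocyte score (mean log2 CPM of the 12 genes) was 12.41, with 80.7 CPM of the collagen gene Col1a1, and in that of CKD mouse 9172 the score was 12.05. The other CKD infarct libraries had scores of 10.50 to 11.44. Among control infarct libraries the score was 7.42 in that of mouse 9171 and 8.85 in that of mouse 9183, against 10.23 to 10.55 in the others. These control infarct libraries were left out 1 at a time and not together. The remote library of control mouse 9180 had 3864 CPM of Col1a1 and a score of 11.19, against 12.02 to 12.39 in the other control remote libraries. Comparisons below are given with and without these libraries where the result moved.

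In infarct tissue the immune subunit Psmb8 rose under every scaling tried, and most genes of the constitutive core had lower values relative to the bulk of genes, which for most of them did not hold with plain library totals, as given further on. Psmb8 had 25.3, 35.5 and 50.0 CPM (lowest, median and highest) in CKD infarct libraries, against 17, 25.7 and 31.01 CPM in CKD remote libraries. In control mice it had 34.7, 40.7 and 46.6 CPM in infarct tissue, against 19.4, 24.7 and 47.7 CPM in remote tissue. All 6 control infarct libraries lay above 5 of the 6 control remote ones and below the remote library of mouse 9180, while the CKD groups overlapped. Psmb8 was higher in infarct than in remote tissue by 0.55 ± 0.17 (SE) on the log2 scale in CKD mice (adjusted p = 0.0144) and by 0.53 ± 0.19 in control mice (adjusted p = 0.0189, edgeR's quasi-likelihood test with Benjamini-Hochberg adjustment, as for all adjusted p-values of genes here). In bulk tissue, fewer cells of a type and less RNA per cell cannot be told apart. Without mouse 9180's remote library the difference in control mice was 0.76, and without the remote library of control mouse 9182 or 9184 the call was lost (0.45 and 0.47, adjusted p = 0.0536 and 0.0501).

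Psmb9, which replaces Psmb6, had 15.99, 24.2 and 30.8 CPM in CKD infarct libraries, against 14.8, 17.8 and 20.7 CPM in CKD remote libraries. Control mice had 21.4, 26.1 and 27.4 CPM in infarct tissue, against 15.6, 17.7 and 33.02 CPM in remote tissue, and the infarct and remote groups overlapped in both diets. The rise passed the test in CKD mice, at 0.46 ± 0.15 (adjusted p = 0.0178), though not without the infarct library of mouse 9175 (0.39, adjusted p = 0.0524). In control mice the difference was 0.31 ± 0.17 (adjusted p = 0.107). It passed there with the mouse as a block (0.36, adjusted p = 0.0389) and without the remote library of mouse 9180 (0.50, adjusted p = 0.00443).

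Psmb10, the immune subunit that replaces Psmb7, differed in direction from the other two. It had 74.5, 82.3 and 109 CPM in CKD infarct libraries, against 76.6, 89.2 and 125 CPM in CKD remote libraries, a difference of -0.12 ± 0.12 (adjusted p = 0.407). Control mice had 51.8, 65.3 and 80.9 CPM in infarct tissue, against 69.7, 79.8 and 100.4 CPM in remote tissue, and Psmb10 fell there by 0.36 ± 0.13 on the log2 scale (adjusted p = 0.021). With library totals the value was 0.12. That call was lost without the control remote library of mouse 9180 or 9183, or the control infarct library of mouse 9171 or 9183 (adjusted p = 0.0533 to 0.0596).

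**Figure D1:**
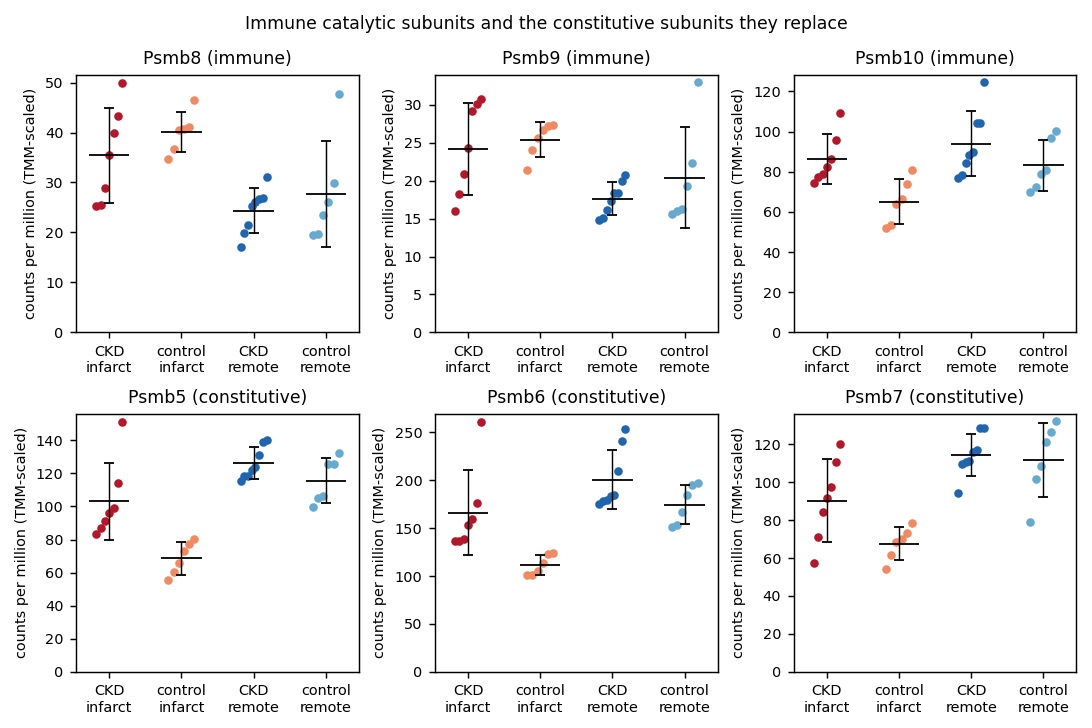
Level of the 3 immune catalytic genes (top) and of the constitutive genes they replace (bottom) in CPM, 1 point a library, with the mean (line) and SD (bar) of each group. Psmb8 lies between 34.7 and 46.6 CPM in control infarct libraries, with 5 of 6 control remote libraries below them, while the 6 control infarct libraries of Psmb5 (55.5 to 80.5 CPM) lie below all control remote ones (99.4 to 132 CPM).

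The 3 constitutive catalytic genes were lower in infarct tissue in both diets with TMM scaling, where 45% of all genes passed the test in CKD mice and 63.9% in control mice. Of these 3 genes 5 of 6 differences passed. With library totals 1 of the 6 passed, that of Psmb5 in control mice, and the values in CKD mice lay near 0 (-0.029 for Psmb5, -0.013 for Psmb6 and -0.052 for Psmb7). Psmb5, the chymotrypsin-like subunit, had 83.3, 96.3 and 151 CPM in CKD infarct libraries, against 115, 123 and 140 CPM in CKD remote libraries. Control mice had 55.5, 69.2 and 80.5 CPM in infarct tissue, against 99.4, 116 and 132 CPM in remote tissue, with no overlap. It fell by 0.75 ± 0.12 on the log2 scale in control mice, to 0.593 of the remote level (adjusted p = 2.44e-05), and by 0.29 ± 0.11 in CKD mice (adjusted p = 0.0347). The highest CKD infarct library, at 151 CPM, was that of mouse 9179.

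Psmb6, the caspase-like subunit, had 136, 153 and 261 CPM in CKD infarct libraries, against 175, 184 and 254 CPM in CKD remote libraries. Control mice had 101, 109 and 124 CPM in infarct tissue, against 151, 176 and 197 CPM in remote tissue. It fell by 0.65 ± 0.14 in control mice (adjusted p = 0.000281), where the groups did not overlap, and differed by -0.27 ± 0.12 in CKD mice (adjusted p = 0.0727). In CKD mice it passed the test without the infarct library of mouse 9179, at -0.39 (adjusted p = 0.00146).

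Psmb7, the trypsin-like subunit, had 57.1, 91.4 and 120 CPM in CKD infarct libraries, against 94.2, 114 and 129 CPM in CKD remote libraries. In control mice it had 53.9, 69.2 and 78.3 CPM in infarct tissue, against 79.1, 115 and 132 CPM in remote tissue, with no overlap. It fell by 0.72 ± 0.14 in control mice (adjusted p = 0.000155) and by 0.34 ± 0.13 in CKD mice (adjusted p = 0.0343). In CKD mice the calls of Psmb5 and Psmb7 were fragile, and each was lost when any of 8 libraries was left out. For Psmb5 these were the CKD remote libraries of mice 9172, 9173 and 9178 and the CKD infarct libraries of mice 9174, 9175, 9176, 9177 and 9178 (adjusted p = 0.0509 to 0.0891). For Psmb7 they were the CKD remote libraries of mice 9176, 9177 and 9178, the control remote library of mouse 9184 and the CKD infarct libraries of mice 9174, 9175, 9178 and 9179 (adjusted p = 0.0509 to 0.0895).

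The ratio of an immune gene to the gene it replaces was computed in each library as the log2 of 2 counts, so that it does not depend on scaling between libraries. The 2 transcripts differ in length, so only differences of the ratio are read. The ratio of Psmb8 to Psmb5 had a mean of -1.55 ± 0.62 (SD, n = 7) in CKD infarct and -2.39 ± 0.24 (n = 8) in CKD remote libraries. In control mice it had a mean of -0.77 ± 0.32 in infarct and -2.12 ± 0.53 in remote libraries (SD, n = 6 each). It was higher in the infarct in all 7 CKD mice with both regions, by a mean of 0.88 (exact sign-flip test over mice, two-sided, p = 0.0156, adjusted 0.0746). It was higher in all 6 control mice, by 1.36 (exact sign-flip test, p = 0.0312, adjusted 0.075). Those are the smallest p-values that 7 and 6 mice allow, and 12 ratio tests were adjusted together, and no ratio passed 0.05 after adjustment.

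The ratio of Psmb9 to Psmb6 was higher in the infarct in 6 of 7 CKD mice, by a mean of 0.74 (exact sign-flip test, p = 0.0312, adjusted 0.075). It was higher in 5 of 6 control mice, by 1.01 (exact sign-flip test, p = 0.0625, adjusted 0.107). The ratio of Psmb10 to Psmb7 was higher in 5 of 7 CKD mice, by 0.29, and in 4 of 6 control mice, by 0.35 (exact sign-flip tests, adjusted p = 0.271 for both). The exceptions for Psmb9 were CKD mouse 9179 and control mouse 9180, each with a library that stood apart. CKD mouse 9172 and control mice 9171 and 9183, whose infarct libraries also stood apart, were no exceptions. In mouse 9172 the ratio was -3.27 in infarct and -3.78 in remote tissue.

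**Figure D2:**
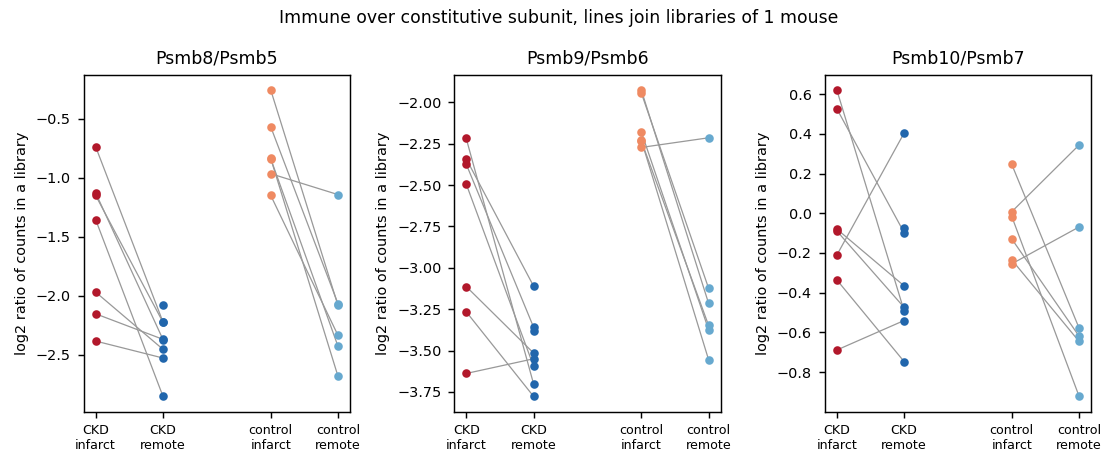
Log2 ratio of an immune to a constitutive catalytic gene in each library, by group, with lines joining infarct and remote libraries of 1 mouse. For Psmb8 over Psmb5 all 7 CKD and all 6 control lines fall towards remote tissue, and for Psmb10 over Psmb7 the lines cross.

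Over the whole set, the share of proteasome genes called lower in the infarct was near that of all genes in CKD mice and above it in control mice. In CKD mice 10 genes fell and 3 rose, where 45% of all 14770 genes tested were called (20.2% lower and 24.7% higher), and 16 had an unadjusted p under 0.05, against 54.2% of all genes. The median log2 fold change of the 42 tested genes was -0.14, against -0.01 over all genes. Without the infarct libraries of mice 9172 and 9179, 20 proteasome genes fell and 4 rose in CKD mice, and without the infarct library of mouse 9174, 9175 or 9178 the calls came to 8. Calls over all genes moved the same way, from 6644 to 9020 without mice 9172 and 9179. Without the infarct library of mouse 9174, 9175 or 9178 they came to 5211, 4967 and 5280. In control mice 32 genes fell and 3 rose, where 63.9% of all genes were called (33.2% lower and 30.7% higher), and 35 had an unadjusted p under 0.05, against 67.3% of all genes. The median of the 42 genes was -0.37, against -0.01 over all genes. Whether the diets differed is tested further on.

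Counts of each class can be read against all genes. Of these 20.2% were lower and 24.7% higher in CKD infarct, and 33.2% lower and 30.7% higher in control infarct tissue. In CKD mice the counts of lower genes in the base, the lid and the activators lay near or below that share. In the core, 7 of 14 constitutive genes fell in CKD mice and 13 of 14 in control mice. Psmb2 fell by 0.38 ± 0.10 in CKD mice (adjusted p = 0.0034) and by 0.72 ± 0.11 in control mice (adjusted p = 1.51e-05). Among the other beta genes without catalytic activity, Psmb4 and Psmb3 fell in both diets, by 0.34 and 0.30 in CKD mice (adjusted p = 0.0129 and 0.0303) and by 0.54 each in control mice. The CKD call of Psmb3 was lost with the mouse as a block (-0.30, adjusted p = 0.0526) and without any 1 of 8 libraries (adjusted p = 0.051 to 0.0777), the CKD remote libraries of mice 9172, 9173 and 9178 and the CKD infarct libraries of mice 9174 to 9178. In the alpha ring, Psma1 had 80.1, 92.7 and 111 CPM in CKD infarct libraries, against 102, 110.4 and 117 CPM in CKD remote libraries. In control mice Psma1 had 68.2, 72.6 and 79.3 CPM in infarct tissue, against 84.1, 104 and 109 CPM in remote tissue, with no overlap. Psma1 fell by 0.21 ± 0.07 in CKD mice (adjusted p = 0.0216, lost without the infarct library of mouse 9174 or 9178) and by 0.45 ± 0.08 in control mice (adjusted p = 4.73e-05). Psma6 fell by 0.28 ± 0.10 in CKD mice (adjusted p = 0.0238) and by 0.60 ± 0.11 in control mice (adjusted p = 7.59e-05). The CKD call of Psma6 was lost without the CKD infarct library of mouse 9174, 9175 or 9178 (adjusted p = 0.0515 to 0.0656). The core gene that did not pass in control mice was Psma5, at -0.09 ± 0.07 (adjusted p = 0.295).

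In the base, 1 of 9 genes fell in CKD mice and all 9 in control mice. Psmc3, an ATPase of the ring that unfolds substrates, had 162, 191 and 324 CPM in CKD infarct libraries, against 251, 272 and 308 CPM in CKD remote libraries. In control mice Psmc3 had 112, 155 and 174 CPM in infarct tissue, against 206, 259 and 267 CPM in remote tissue, with no overlap. Psmc3 fell by 0.36 ± 0.12 in CKD mice (adjusted p = 0.0159) and by 0.75 ± 0.13 in control mice (adjusted p = 4.77e-05). The ATPase genes Psmc2 and Psmc1 fell by 0.51 ± 0.09 and 0.53 ± 0.10 in control mice (adjusted p = 2.94e-05 and 0.000108). The remaining ATPase genes and the base subunits Psmd1, Psmd2 and Psmd4, a ubiquitin receptor, were lower in control infarct by between 0.30 and 0.59.

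In the lid, 1 of 8 genes fell in CKD mice and 7 of 8 in control mice. Psmd3, a scaffold subunit of the lid, had 104, 133 and 177 CPM in CKD infarct libraries, against 149, 165 and 181 CPM in CKD remote libraries. In control mice Psmd3 had 78.8, 93.2 and 103 CPM in infarct tissue, against 122, 161 and 172 CPM in remote tissue, with no overlap. Psmd3 fell by 0.35 ± 0.10 in CKD mice (adjusted p = 0.00689) and by 0.75 ± 0.11 in control mice (adjusted p = 1.36e-05). Psmd12 and Psmd7, a partner of the lid's deubiquitinase, fell in control mice by 0.65 ± 0.11 and 0.52 ± 0.10 (adjusted p = 3.46e-05 and 0.00013). Psmd8 stood against its class in control mice and passed in neither diet, at 0.12 ± 0.08 in CKD and 0.02 ± 0.08 in control mice (adjusted p = 0.186 and 0.828).

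**Figure D3:**
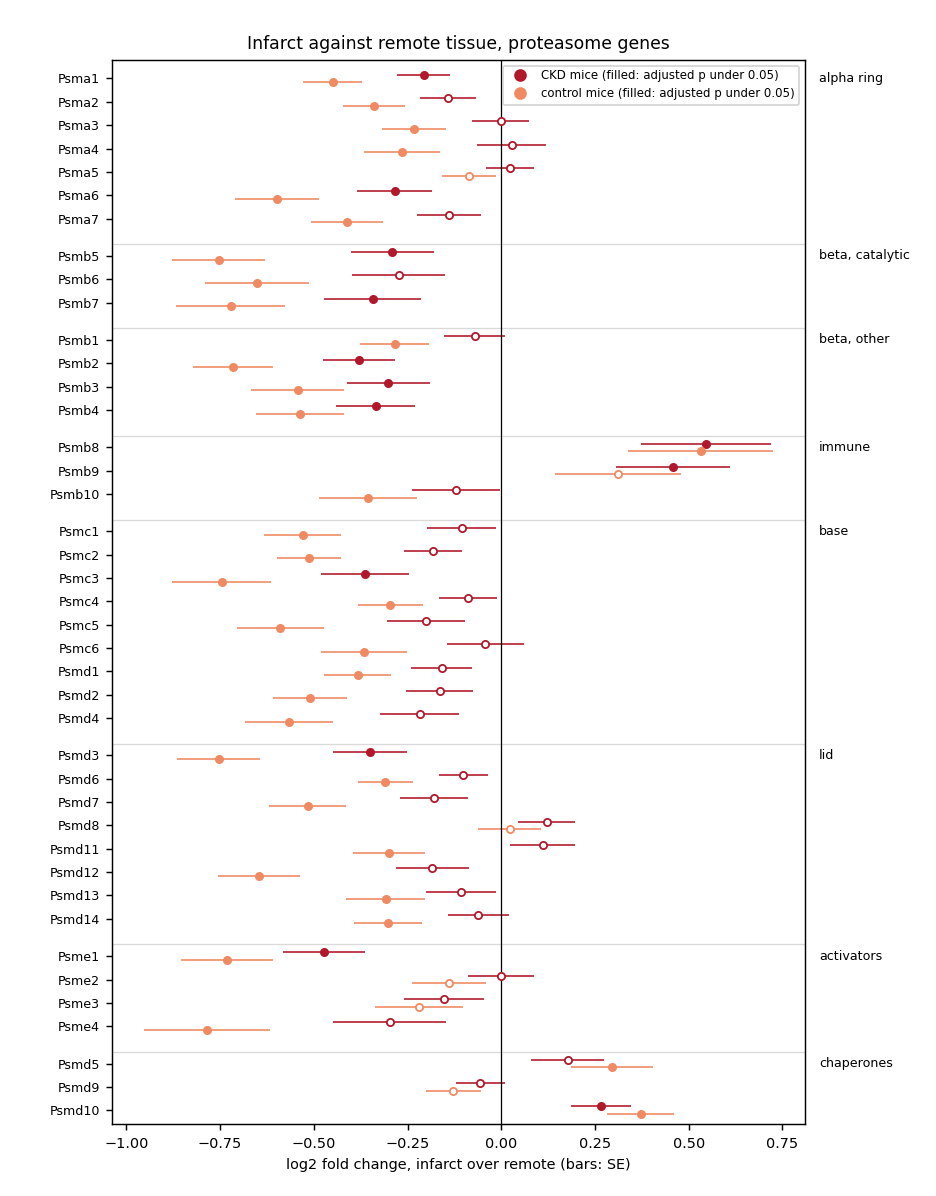
Log2 fold change of infarct over remote tissue (points, with SE as bars) for 41 proteasome genes by class, in CKD mice (dark) and control mice (light); filled points had an adjusted p under 0.05, and Psma8 and Psmb11 are left out. With TMM scaling 32 filled points of control mice lie below 0, while Psmb8, Psmd5 and Psmd10 lie above it. With library totals 5 calls of control mice are below 0 and 12 above, where 10696 of all genes were called.

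Of the 4 activators, which open the gate of the core, 1 fell in CKD mice and 2 fell in control mice, and all 4 had values below 0 in both diets with TMM scaling. Psme1 and Psme2 encode the alpha and beta chains of the interferon-inducible activator ring. Psme1 had 107, 113 and 190 CPM in CKD infarct libraries, against 169, 187 and 202 CPM in CKD remote libraries. In control mice Psme1 had 83.4, 93.1 and 107 CPM in infarct tissue, against 125, 163 and 171 CPM in remote tissue, with no overlap. Psme1 fell by 0.47 ± 0.11 in CKD mice (adjusted p = 0.00163) and by 0.73 ± 0.12 in control mice (adjusted p = 2.87e-05).

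Psme2, its partner in the ring, had 64.8, 78.9 and 97.1 CPM in CKD infarct libraries, against 68.1, 78.0 and 101 CPM in CKD remote libraries. In control mice Psme2 had 64.7, 68.9 and 75.5 CPM in infarct tissue, against 64.9, 77.1 and 84.2 CPM in remote tissue. All 4 groups of Psme2 overlapped, and its difference in control mice was -0.14 ± 0.10 (adjusted p = 0.215) with TMM scaling and 0.35 (adjusted p = 0.00787) with library totals. A near-copy, Psme2b, was listed apart at 4.16 to 7.30 CPM over all groups, and reads could have been split between them, so Psme2 is uncertain. Psme4, a large activator of its own kind, fell by 0.78 ± 0.17 in control mice (adjusted p = 0.000293), and Psme3, the nuclear activator, passed in neither diet.

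Of the 3 assembly chaperones of the base, 1 rose in CKD infarct and 2 in control infarct tissue. Psmd10 (gankyrin), a chaperone that binds an ATPase of the base, had 11.8, 15.3 and 18.8 CPM in CKD infarct libraries, against 10.3, 12.7 and 14.4 CPM in CKD remote libraries. In control mice Psmd10 had 15.6, 16.3 and 17.3 CPM in infarct tissue, against 12.1, 12.6 and 13.97 CPM in remote tissue, with no overlap. Psmd10 rose by 0.26 ± 0.08 in CKD mice (adjusted p = 0.0107) and by 0.37 ± 0.09 in control mice (adjusted p = 0.000836). Psmd5 rose in control mice by 0.30 ± 0.11 (adjusted p = 0.0208), though not without the control remote library of mouse 9183 or the control infarct library of mouse 9184 (adjusted p = 0.0574 and 0.0544), and Psmd9 passed in neither diet.

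The direction of the bulk of these genes rests on the scaling. With library totals in place of TMM factors, a choice added after the data were seen, the median of all genes moved to 0.28 in CKD mice and 0.48 in control mice, and the medians of the proteasome genes were 0.14 and 0.11. Relative to the median gene they were lower under both scalings. A change of scaling shifts all genes nearly alike, so this agreement is no separate support. With library totals 15 proteasome genes rose and 1 fell in CKD mice, and 12 rose and 5 fell in control mice. Of all 14770 genes tested, 7706 were called under that scaling in CKD mice and 10696 in control mice. Those shares lay above the shares of proteasome genes called. In control mice Psmb5, Psmb2, Psmc3, Psmd3 and Psme1 fell and Psmb8, Psmd5 and Psmd10 rose under either scaling, while in CKD mice Psme1 fell and Psmb8, Psmb9 and Psmd10 rose under either. Cell markers moved with these results. The 9 macrophage and monocyte markers, none at 0, summed to 546 to 7101 CPM in CKD infarct and 2017 to 4790 CPM in control infarct tissue, against 458 to 888 CPM in CKD remote and 430 to 1646 CPM in control remote tissue. The 9 T and NK cell markers, none at 0, summed to 3.99 to 18.9 CPM in CKD infarct and 12.5 to 25.1 CPM in control infarct tissue, against 1.94 to 4.61 CPM in CKD remote and 1.36 to 9.21 CPM in control remote tissue. The 6 fibroblast markers, none at 0, summed to 798 to 23917 CPM in CKD infarct and 19670 to 39905 CPM in control infarct tissue, against 833 to 1579 CPM in CKD remote and 981 to 9971 CPM in control remote tissue. The part of these cells, and of heart muscle, in the region differences was not tested.

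Other genes of the pathway were counted from lists. They can be read against all genes tested, of which 20.2% were lower and 24.7% higher in CKD infarct, and 33.2% lower and 30.7% higher in control infarct tissue. Of 12 further proteasome subunits, chaperones and partners, 3 fell in CKD mice, a share near that of all genes, and 8 in control mice. Adrm1, a ubiquitin receptor of the base, was lower by 0.59 on the log2 scale in control infarct (log2 fold change -0.59, adjusted p = 1.81e-05), but not with library totals (-0.095, adjusted p = 0.376). Of 8 muscle ubiquitin ligases, 3 fell in CKD mice and 6 in control mice, and Trim54 had a log2 fold change of -1.91 in control mice (adjusted p = 2.08e-05). Of 9 genes of proteasome gene control and shuttling, 2 rose and 2 fell in CKD mice, and 2 rose and 3 fell in control mice, with a median log2 fold change of 0.041 in CKD and 0.027 in control mice. Among them Nfe2l1, a transcription factor that raises proteasome genes when the complex is inhibited, had a log2 fold change of -0.96 in control mice (adjusted p = 8.72e-05). Of 11 genes of MHC class I presentation, 7 rose in CKD mice and 7 in control mice. Tapbp, which loads peptides onto MHC class I, rose by 0.59 in CKD and 0.64 in control mice (adjusted p = 0.000296 and 0.000122), and the chaperone Pdia3 rose by 1.13 and 1.20 (adjusted p = 0.000257 and 0.000134). Of 11 tested genes of the interferon gamma response, 5 rose in CKD mice, and 7 rose and 1 fell in control mice.

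In infarct tissue, many proteasome genes were higher in CKD than in control mice relative to the bulk of genes. Of the 42 tested genes 22 rose and none fell, where 20.3% of all 14358 genes tested were called (13.1% higher and 7.14% lower). At an unadjusted p under 0.05 there were 32, against 40.2% of all genes. The median log2 fold change of the 42 genes was 0.34, against -0.02 over all genes. These control infarct libraries also enter the comparison of regions in control mice, and the values of both comparisons are therefore set side by side only. The base had 7 of 9 genes called, the lid 5 of 8, the constitutive core 7 of 14, the activators 2 of 4, the immune genes 1 of 3 and the assembly chaperones 0 of 3.

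Psmb5, with 83.3 to 151 CPM in CKD infarct libraries against 55.5 to 80.5 CPM in control infarct libraries and no overlap, was higher by 0.55 ± 0.14 (adjusted p = 0.0345), or 1.46-fold. Psmb6 had 136 to 261 CPM in CKD infarct libraries, against 101 to 124 CPM in control infarct libraries, again with no overlap, and was higher by 0.53 ± 0.14 (adjusted p = 0.0345). Psmb7 overlapped between the groups and did not pass, at 0.38 ± 0.16 (adjusted p = 0.0991). Among the immune genes, Psmb10 rose by 0.37 ± 0.12 (adjusted p = 0.0478), a call lost without any 1 of 12 of the 13 libraries (adjusted p = 0.0515 to 0.114), the exception being that of CKD mouse 9175. Psmb8 and Psmb9 had log2 fold changes of -0.22 ± 0.16 and -0.11 ± 0.15 (adjusted p = 0.318 and 0.604).

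Psme4 had 110, 143 and 189 CPM in CKD infarct libraries, against 43.4, 86.8 and 115 CPM in control infarct libraries, the groups overlapping at their edges, and rose by 0.75 ± 0.20 (adjusted p = 0.0345). Psme1 rose by 0.44 ± 0.14 (adjusted p = 0.0413), and Psme2 had a log2 fold change of 0.18 ± 0.09 (adjusted p = 0.138). In the base the ATPase genes Psmc5, Psmc1 and Psmc4 rose by 0.54 ± 0.13, 0.51 ± 0.12 and 0.34 ± 0.09 (adjusted p = 0.0345 each). Psmc1 had 138, 157 and 224 CPM in CKD infarct libraries, against 97.3, 114 and 122 CPM in control infarct libraries, with no overlap. In the lid Psmd11, Psmd3 and Psmd12 rose by 0.48, 0.46 and 0.46, each with an SE of 0.12 (adjusted p = 0.0345 each). In the core outside the catalytic genes, Psma1 and Psma3 rose by 0.32 and 0.23 (adjusted p = 0.0345 and 0.0484), and Psmb2, Psmb4 and Psmb3 by 0.40, 0.40 and 0.44 (adjusted p = 0.0365, 0.0386 and 0.0387). Of the 12 further proteasome genes 6 rose, where 13.1% of all genes did, among them Adrm1 by 0.41 and the core maturation factor Pomp by 0.45 (adjusted p = 0.0345 each). Of the 9 genes of gene control and shuttling 2 rose and 1 fell, and Nfe2l1 rose by 0.58 (adjusted p = 0.0455), while 5 of 8 muscle ubiquitin ligases rose, with Trim54 at 1.27 (adjusted p = 0.0365).

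**Figure D4:**
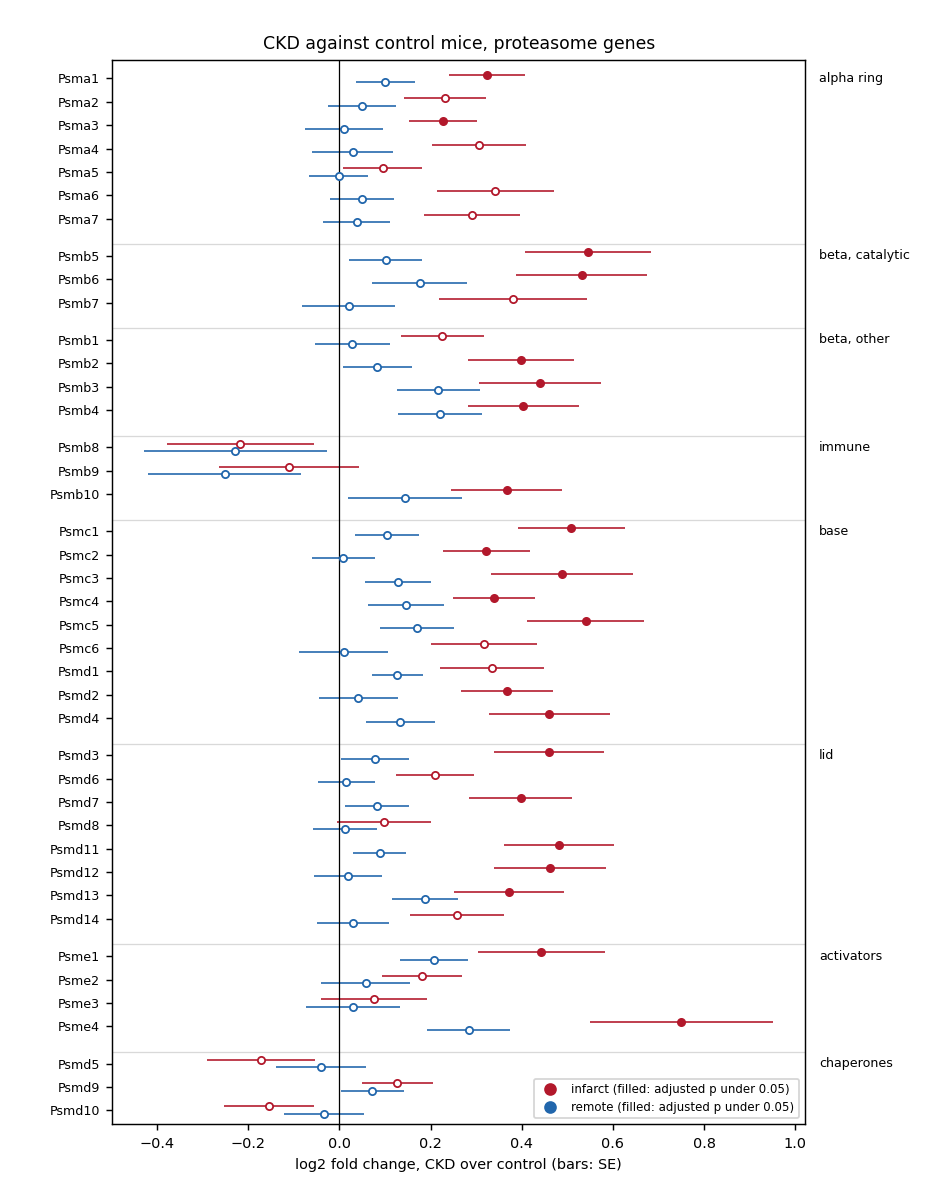
Log2 fold change of CKD over control mice (points, with SE as bars) for 41 proteasome genes by class, in infarct tissue (red) and remote tissue (blue); filled points had an adjusted p under 0.05, and Psma8 and Psmb11 are left out. With TMM scaling all 22 filled points are in infarct tissue and lie above 0, against 1 call, below 0, with library totals, and Psmb8 and Psmb9 lie below 0 in both regions. Of all genes, 2908 were called in infarct tissue with TMM scaling and 3635 with library totals.

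In the main edgeR fit these 22 calls lay near the threshold and depended on single libraries, as did the calls over all genes. The median log2 fold change of the proteasome genes stayed between 0.30 and 0.38 whichever 1 of the 13 libraries was left out. With all libraries of the comparison, DESeq2 called 30 proteasome genes (4557 of all genes) and limma-voom 15 (2367). The edgeR fit of all 27 libraries called 32 (5067). No proteasome gene was called without the control infarct library of mouse 9171, 9182 or 9183, or without the CKD infarct library of mouse 9172 or 9177, and 14 were left without that of control mouse 9170 or of CKD mouse 9176 or 9179. Without any 1 of the first 5 libraries 0 of all genes were called, against 2908 in the main fit. The proteasome genes with an unadjusted p under 0.05 then numbered 28 to 31. The fits that left 14 called 2441, 1742 and 1644 of all genes. The calls of Adrm1, Pomp, Nfe2l1 and Trim54 also ended without any 1 of the first 5 of these libraries. The calls nearer the threshold ended without more libraries beside those 5: 6 in all for Psmb2 (also CKD 9179), 8 for Psmb3 (also CKD 9176 and 9179 and control 9170), 8 for Psmb4 (also CKD 9176 and control 9170 and 9184) and 8 for Psme1 (also CKD 9179 and control 9180 and 9184). The call of Psma3 ended without any 1 of 11 of the 13 libraries (adjusted p = 0.0595 to 0.112), all but those of CKD mice 9174 and 9175. Among the further genes, 7 libraries ended that of Trim54 (also CKD 9176 and 9179) and 10 that of Nfe2l1 (also CKD 9176 and 9179 and control 9170, 9180 and 9184). Without mice 9172 and 9179 together, the infarct libraries with most heart muscle in the CKD group, no gene passed, 22 genes had an unadjusted p under 0.05 and the median log2 fold change of the proteasome genes was 0.23. With the cardiomyocyte score as a covariate no gene passed, 0 had an unadjusted p under 0.05 and the median was 0.13. Library totals, which put the median of all genes at -0.29 and that of the proteasome genes at 0.06, left 1 call, a lower one among the 3 base assembly chaperones. Of all genes 3635 were called under that scaling. The cardiomyocyte score was 10.50 to 12.41 in CKD infarct and 7.42 to 10.55 in control infarct libraries. The ratio of Psmb8 to Psmb5 was lower in CKD infarct by 0.79 (exact permutation test, two-sided, p = 0.0186, adjusted 0.0746), and that of Psmb9 to Psmb6 by 0.65 (exact permutation test, p = 0.0117, adjusted 0.0746). Without the CKD infarct libraries of mice 9172 and 9179 these log2 differences were -0.50 (exact permutation test, p = 0.0498, adjusted 0.107) and -0.38 (exact permutation test, p = 0.00866, adjusted 0.104). With all infarct libraries the ratio of Psmb10 to Psmb7 differed by 0.03 (exact permutation test, adjusted p = 0.896).

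In remote myocardium no proteasome gene passed the test between CKD and control mice. Of the 42 tested genes 0 were called by edgeR, where 0.0216% of all 13902 genes were, and 6 had an unadjusted p under 0.05, against 11.7% of all genes. DESeq2 and limma-voom also called 0, each with 8 at an unadjusted p under 0.05, where they called 97 and 5 of all genes. The median log2 fold change of the 42 genes was 0.05. Psmb8, Psmb9 and Psmb10 had log2 fold changes of -0.23 ± 0.20, -0.25 ± 0.17 and 0.14 ± 0.13 (adjusted p = 0.686, 0.577 and 0.686). The sign for Psmb8 rested on the remote library of control mouse 9180, without which the value was 0.029. In remote tissue too the ratio of Psmb8 to Psmb5 was lower in CKD mice, by 0.26 (exact permutation test, p = 0.25, adjusted 0.3). That of Psmb9 to Psmb6 was lower by 0.36 (exact permutation test, p = 0.049, adjusted 0.0979). Without that library of mouse 9180 these log2 differences were -0.068 and -0.18. The ratio of Psmb10 to Psmb7 differed by 0.12 (exact permutation test, adjusted p = 0.652).

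The difference of the CKD effects between infarct and remote tissue, which is also the difference of the region effects between diets, was called for 0 of the 42 genes and 0% of all 14770 genes by edgeR. Of the 42 genes 19 had an unadjusted p under 0.05, against 18.9% of all genes. DESeq2 called 7 of the 42 and limma-voom 0, where they called 600 and 6 of all genes. The median difference of the 42 genes was 0.24, against 0.06 over all genes, and 40 values were above 0. Psmb5 had the difference 0.46 ± 0.16 (adjusted p = 0.165). The 3 immune genes lay between 0.01 and 0.23 (adjusted p = 0.496 to 0.984). By edgeR, a larger CKD effect in the infarct than in remote tissue was thus not established for any single gene.

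The class levels of each library can be set beside its amount of heart muscle. The mean log2 difference of the 14 core genes from the control remote mean was lowest, at -0.67, in the control infarct library of mouse 9171, whose cardiomyocyte score of 7.42 was also the lowest. The core value was 0.20 in the CKD infarct library of mouse 9179, with a score of 12.41, and -0.15 in the control remote library of mouse 9180, with 11.19. The mean of the 3 immune genes was 0.21 in the library of mouse 9171, 0.21 in the infarct library of mouse 9179 and 0.63 in the remote library of mouse 9180. The equal means of the first 2 libraries had different parts. The infarct library of mouse 9171 was the highest of its group for Psmb8 (46.6 CPM), and that of mouse 9179 for Psmb10 (109 CPM). The log2 ratio of Psmb8 to Psmb5 was -0.25 in the infarct library of mouse 9171 and -2.39 in that of mouse 9179. These points share their libraries and their scaling and are a description, and the part of heart muscle in the class levels was not tested by them.

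**Figure D5:**
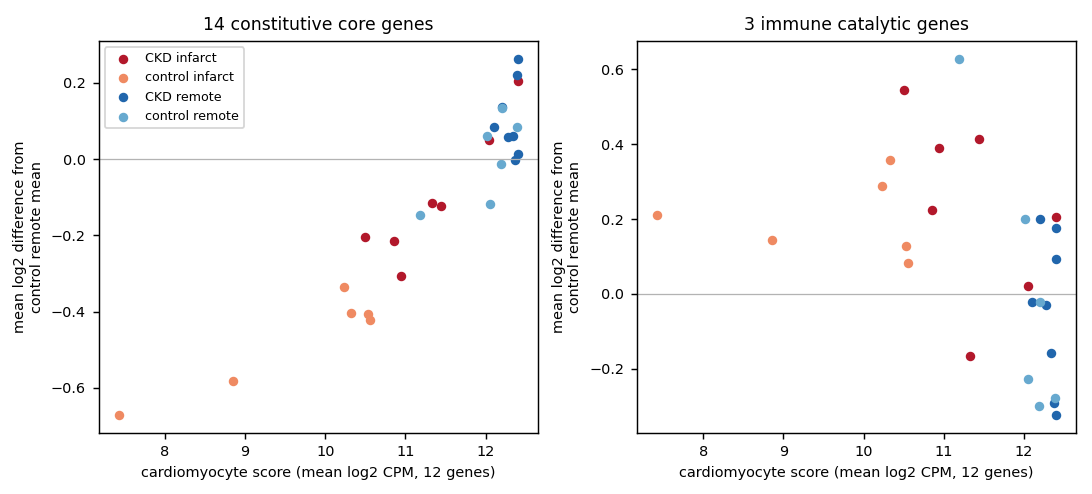
Mean log2 difference from the control remote mean of 14 constitutive core genes (left) and 3 immune catalytic genes (right), against the cardiomyocyte score of each library, coloured by group. The core values run from -0.67 at the lowest score to 0.26 among remote libraries, and the highest immune value, 0.63, is that of the remote library of control mouse 9180.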

How the data were processed

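Bulk RNA sequencing counts of 27 libraries were analysed. Per the labels, RNA was extracted with the RNeasy Micro kit and libraries were made with the NEBNext Ultra II kit. The submitters' processing notes name kallisto 0.48.0 and build GRCm39. The deposited table holds whole-number counts per gene, made by the authors; how transcript estimates became counts, the annotation release and strandedness are not given in the sources used here. All 27 columns were matched to samples by the library name in the sample description, and the title gave the group.

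The filter on low counts was filterByExpr, library sizes were scaled by TMM, and edgeR 4.0.16 in R 4.3.3 gave the quasi-likelihood tests, with p-values adjusted by Benjamini-Hochberg over all genes at a threshold of 0.05. CKD and control were compared within a region from its own libraries; region comparisons and the difference used all 27 with 4 group means. Errors of log2 fold changes are standard errors derived from the F value. Ratios used a prior count of 2 and exact two-sided tests. Alternatives were other scalings and filters, DESeq2 1.42.0, limma 3.58.1 voom with sample weights, a cardiomyocyte covariate, a mouse block, other libraries in the fit and leaving out libraries. The region comparisons are paired by mouse by design; residuals of the 13 pairs correlated at -0.103 to 0.398 (median 0.172), against a median of -0.0195 for other mice. Within groups no library pair was a duplicate (79 pairs, lowest chi-square per degree of freedom 9.03). The tests were run on simulated data first.

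The proteasome genes, the lists and the markers were chosen with earlier results of these data known. Psmb5 to Psmb10, Psme1 and Psme2 were always named, and of each other class and list up to 3 called genes with the smallest p; Psma5, Psmd8 and the libraries that stood apart were named after their values were seen. Samples of a group are separate mice.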

Additional observations from a re-analysis of the deposited data

Results flagged for a closer look

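In 180 groups of values, the 42 tested genes (all but Psmb11) and the 3 ratios in each of the 4 groups, 15 had a sample whose gap to its nearest neighbour took an unusually large share of the group's range. Chance flags about 1 in 20 such groups, and genes of 1 library are not independent of each other. The infarct library of CKD mouse 9179 was the highest of its group for 8 of them, at 143.4 CPM of Psma4, 165.7 CPM of Psma7, 259.2 CPM of Psmb4, 261.5 CPM of Psmb6, 153.7 CPM of Psmd13, 170.3 CPM of Psmd4, 152.7 CPM of Psmd7 and 34.65 CPM of Psmd9. Its cardiomyocyte score of 12.41 lay above that of all other CKD infarct libraries. The remote library of control mouse 9180 was flagged 5 times. It was the highest of its group for Psmb8 (47.7 CPM), for Psmd10 (13.97 CPM) and for the ratio of Psmb9 to Psmb6 (-2.214 on the log2 scale), and the lowest for Psmd1 (83.02 CPM) and Psmd12 (64.43 CPM). Its Col1a1 level of 3864 CPM and its leukocyte gene Ptprc at 22.5 CPM were the highest of the control remote libraries. The control infarct library of mouse 9180 was the highest of its group for Psmc4, at 84.28 CPM. Psma8, a gene with few counts, was highest at 1.687 CPM in the control remote library of mouse 9182. The cause of these values was not tested.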

How the results depend on the processing

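Counts of proteasome genes called moved as follows, with counts over all genes beside them, and the cause was not tested. The 22 calls for CKD against control infarct tissue (2908 of all genes) became 13 without a filter (1926) and 1 with library totals (3635). They became 30 with DESeq2 (4557), 32 with all 27 libraries in the fit (5067) and 15 with limma-voom (2367). They became 0 with the cardiomyocyte covariate and 0 without CKD mice 9172 and 9179, as did those of all genes. Leaving out 1 library gave 0 to 26 (0 to 4651 of all genes). For infarct against remote tissue in CKD mice the 13 calls (6644 of all genes) became 26 with limma-voom (8886). They became 8 with the libraries of those 2 groups alone (5797) and 24 without mice 9172 and 9179 (9020). Leaving out 1 library gave 8 (without the CKD infarct library of 9174, 9175 or 9178) to 20 (without that of 9179). Over all genes it gave 4967 to 8401 calls. In control mice the 35 calls (9437 of all genes) became 17 with library totals (10696), and leaving out 1 library gave 32 to 36 (8790 to 9856). The difference of the CKD effects had 7 calls with DESeq2 (600 of all genes), and 0 when any library was left out, as had CKD against control in remote tissue. With the mouse as a replicate block the calls were 12 in CKD mice, 36 in control mice and 0 for the difference (7200, 9758 and 0 of all genes). There the call of Psmb9 in control mice was gained (0.36), and in CKD mice that of Psmb3 was lost (-0.30, adjusted p = 0.0526). Without the replicate block, ratio differences passed after adjustment (exact permutation tests, adjusted p = 0.026 each): Psmb8 to Psmb5 by 0.83 in CKD and 1.36 in control mice, and Psmb9 to Psmb6 by 0.72 in CKD and 1.01 in control mice. That version treats the 2 libraries of a mouse as independent, which the paired design does not allow. The sign-flip tests over mice cannot give p-values below 0.0156 in CKD and 0.0312 in control mice.

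Signs turned as follows. In remote tissue, CKD against control, Psmb8 was 0.034 with limma-voom, 0.21 with the covariate and 0.029 without control mouse 9180, and Psmb9 was 0.11 with the covariate. In infarct tissue Psmb8 and Psmb9 were 0.085 and 0.12 with the covariate, and Psma3 and Psme2 -0.054 and -0.10 with library totals. Without mice 9172 and 9179 the ratio of Psmb10 to Psmb7 was -0.070. With library totals, infarct against remote, Psma1 and Psmb10 were 0.073 and 0.16 in CKD mice, and Psma1, Psma7, Psmb10 and Psme2 were 0.053, 0.080, 0.12 and 0.35 in control mice. Counting the remote library of mouse 9179 as control left the counts of calls at 0, 0, 13 and 35. The infarct library of mouse 9179 stayed with the CKD mice there. CKD against control infarct tissue was not repeated with it as control, so the diet of this mouse was not tested.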
